A study of Mus musculus with 16 samples.

Results

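The 10 genes described here, Igf2r, Airn, Plagl1, Peg3, Impact, Mcts2, Nap1l5, Zrsr1, Peg10 and Nespas, are imprinted genes or transcripts whose germline differentially methylated regions (gDMRs) are methylated in the egg and not in sperm. They were taken by name from a table of 25965 mouse genes, by a rule on names that used no measured value. For each of them, expression was read as RPKM (reads scaled by the length of the gene model and by the reads of the library) in 9 RNA-seq libraries, and methylation was read in a window of 3 kb to either side of the annotated gene start. The gDMR of Igf2r lies in an intron at the start of Airn, so that the Airn window holds the gDMR and the Igf2r window holds the promoter of Igf2r.

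All libraries came from oocytes of C57BL/6Babr mice without a transgene or treatment, washed to remove somatic cells and pooled. Oocytes of the size classes were measured under a micrometre, whereas no diameter is given for the GV oocytes. The RNA-seq libraries were from oocytes of 10–30 μm (postnatal days 5–7), 40–45 μm (days 7–12), 50–55 μm (days 9–14) and 60–65 μm (days 13–16), with replicates A and B in each size class, and there was 1 library of germinal vesicle (GV) oocytes of day 20. Reduced representation bisulphite sequencing (RRBS), which samples CpG-rich MspI fragments, had replicates A and B for each class from 40–45 μm upward, while post-bisulphite adaptor tagging (PBAT), which samples the whole genome, was made once for the 60–65 μm class. Diameter and age rose together and cannot be told apart. Nothing states that A and B came from separate animals, so that p-values measure the spread between these libraries, which may be technical. For methylation that spread was taken from the trend over all windows of a like level, so that the spread of a window's own replicates did not enter its p-value.

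In imprinting, a gDMR methylated by DNMT3A and its partner DNMT3L during oocyte growth keeps that mark on the maternal chromosome after fertilisation, and genes nearby are then expressed from 1 parental copy only. Proteins such as ZFP57, which binds a methylated hexamer, and TRIM28 protect the mark while the rest of the genome is reprogrammed. The 10 genes fall into 4 kinds. Airn and Nespas are non-coding transcripts antisense to Igf2r and to transcripts of the Gnas cluster, and Airn represses Igf2r in cis on the paternal chromosome. Mcts2, Nap1l5 and Zrsr1 are intronless or retrotransposed genes lying within the host genes H13, Herc3 and Commd1. Plagl1 (a zinc finger transcription factor, also called Zac1), Peg3 (a zinc finger protein), Impact (an inhibitor of the kinase GCN2) and Peg10 (a gene derived from a retrotransposon and needed in the placenta) have a gDMR at or near their own promoter. Igf2r encodes the receptor that clears IGF2.

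In the table, all by GRCm38, Igf2r spans chr17:12682406-12769664 on the minus strand, and Airn starts within it on the plus strand at chr17:12741311-12860122, 28353 bp from the Igf2r start. Mcts2 (chr2:152687148-152687940, plus strand) lies wholly within H13 on the same strand, Nap1l5 (chr6:58905234-58907126, minus) wholly within Herc3 on the opposite strand, and Zrsr1 (chr11:22972005-22976496, plus) wholly within Commd1 on the opposite strand. Nespas (chr2:174281237-174295436, minus) starts inside Gnas on the opposite strand, and Peg10 (chr6:4747306-4760517, plus) starts 102 bp from the start of Sgce, which runs the other way. Plagl1 lies at chr10:13090691-13131694 (plus) and Peg3 at chr7:6703892-6730421 (minus).

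Selected stretches with RRBS measurements are shown for 8 of the 10 genes, from the RefSeq GRCm38 assembly, because the fragments sampled differ from gene to gene. Each stretch holds part of the positions of its window. Each is written 5′ to 3′ along the strand of its gene, positions are distances in bp from the gene start, and CpGs in capitals are those measured with at least 5 reads in both 60–65 μm libraries. Within Airn, the first stretch held 7 such CpGs and the second 3.
Airn +272 to +445, chr17:12741583-12741756, plus strand: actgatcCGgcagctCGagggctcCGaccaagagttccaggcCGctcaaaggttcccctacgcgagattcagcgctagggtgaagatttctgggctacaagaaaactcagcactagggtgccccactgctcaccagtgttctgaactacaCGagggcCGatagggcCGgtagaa
Airn +920 to +965, chr17:12742231-12742276, plus strand: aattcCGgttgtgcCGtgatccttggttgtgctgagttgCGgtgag
The stretch of Plagl1 lay in an annotated exon of Hymai, and that of Mcts2 upstream of its start, in an annotated exon of its host H13.
Plagl1 +344 to +441, chr10:13091035-13091132, plus strand: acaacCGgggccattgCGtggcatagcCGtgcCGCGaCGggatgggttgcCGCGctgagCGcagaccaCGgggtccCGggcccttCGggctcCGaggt
Mcts2 -278 to -252, chr2:152686870-152686896, plus strand: tgcCGCGagagcCGCGtgcCGCGCGag
The stretch of Nap1l5 was coding sequence of the gene itself, whereas that shown for Zrsr1 ends at the base before its start, and most measured positions of its window lay downstream.
Nap1l5 +244 to +396, chr6:58906730-58906882, minus strand: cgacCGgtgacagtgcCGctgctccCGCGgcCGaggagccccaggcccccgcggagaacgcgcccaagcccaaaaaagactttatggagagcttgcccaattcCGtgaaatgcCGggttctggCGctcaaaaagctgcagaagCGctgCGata
Zrsr1 -108 to -1, chr11:22971897-22972004, plus strand: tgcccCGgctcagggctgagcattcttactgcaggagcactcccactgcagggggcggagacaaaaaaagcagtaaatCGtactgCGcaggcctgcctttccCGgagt
For Nespas a stretch close to the start is given, and for Peg10 one in its annotated exon.
Nespas -82 to -47, chr2:174295483-174295518, minus strand: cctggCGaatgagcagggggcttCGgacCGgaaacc
Peg10 +50 to +71, chr6:4747356-4747377, plus strand: ggactccCGatacaCGCGtttc
The last stretch lies before the Igf2r start and is shown as the contrast. By RRBS its 10 CpGs in capitals remained nearly unmethylated at all sizes. By PBAT the CpG at -147 bp was at 35.7% on 14 reads, and the other positions read there were at 0%.
Igf2r -152 to -84, chr17:12769748-12769816, minus strand: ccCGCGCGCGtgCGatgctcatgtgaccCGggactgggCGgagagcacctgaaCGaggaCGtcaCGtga
In the Igf2r stretch the mean over its measured positions was 0.867 and 1.21% (A and B) in the smallest oocytes measured, and 1.47 and 0.505% in the largest. In the first Airn stretch the corresponding means were 1.93 and 0.0%, then 70.8 and 74.9%. The 27 bp of Mcts2 went from 0.0% in both libraries to 52.1 and 60.8%.

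Methylation at the windows of all these genes other than Igf2r went from low levels in 40–45 μm oocytes to between 33.0 and 68.1% in 60–65 μm oocytes, whereas most gene starts remained unmethylated. The level of a window is the mean over its positions with at least 5 reads, the median of the 14396 windows tested was 0.675% at 40–45 μm and 0.777% at 60–65 μm, and 99% of them lay at or under 47.4% at 60–65 μm. With increasing size, Airn averaged 1.54 ± 1.31% (SD, n = 2), 28.8 ± 3.18% and 68.1 ± 0.0870%, and 0.25% of all windows were at or above it. Igf2r averaged 0.324 ± 0.0235, 1.97 ± 2.61 and 1.61 ± 1.95% in the same classes, and 20.6% of all windows were at or above it at 60–65 μm.

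**Figure D1:**
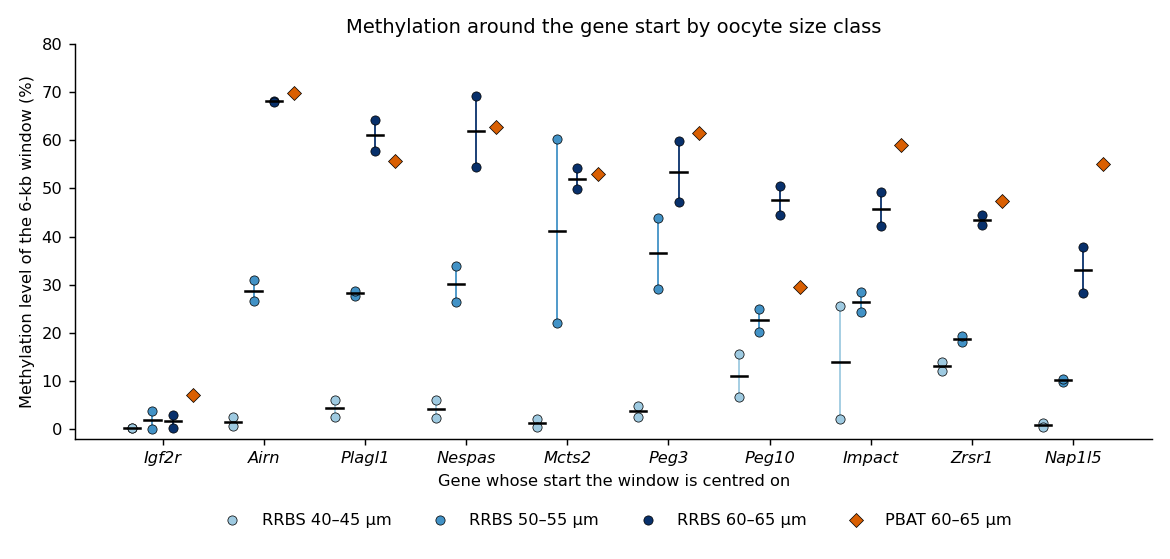
Methylation level (%) of the 6-kb window around each gene start, with 1 point per library, a bar at the mean of the 2 RRBS libraries of a size class and a diamond for the single PBAT library. In all windows but that of Igf2r, both 60–65 μm RRBS libraries lie above both 40–45 μm libraries, and the Mcts2 libraries of 50–55 μm are far apart, at 22.1 and 60.2%.

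Among the antisense transcripts, Airn had 2.47 and 0.615% (replicates A and B) in the 40–45 μm class, 31.0 and 26.5% in the next and 68.2 and 68.0% in the largest. Nespas had 2.42 and 6.10%, 26.5 and 33.9%, and 54.6 and 69.1% in the same order. In both windows the 3 size classes did not overlap. Airn was read at 10 positions in 5 libraries and at 3 in 50–55 μm B.

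Among the nested genes, Nap1l5 was read at 1.29 and 0.366%, then 9.83 and 10.5%, then 28.3 and 37.7% at the same 13 positions in every library. Zrsr1 began higher, at 12.2 and 13.9%, and went through 18.1 and 19.4% to 42.4 and 44.6%. Mcts2, at 18 positions in every library, began at 2.05 and 0.397%, reached 22.1 and 60.2% at 50–55 μm, and ended at 49.9 and 54.2%. The classes of Nap1l5 and Zrsr1 did not overlap, whereas the 50–55 μm libraries of Mcts2 lay on either side of its 60–65 μm libraries.

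The first level of Zrsr1 was uneven along its window. In the 40–45 μm class, the 500 bp after the start averaged 19.6 and 20.4% and the next 500 bp 13.6 and 17.3%, whereas the 500 bp before the start averaged 0.929 and 0.190%. Positions +169, +179 and +197 bp were read at 70.0, 72.7 and 54.5% in A and at 100% in B, on 10 to 14 reads each. With calls pooled over positions, the Zrsr1 window was at 4.97 and 5.53%. In Mcts2 50–55 μm B, the 5 positions between -266 and -255 bp stood at 52.6, 55.6 or 100% on 18 or 19 reads, and in A at 10.0 to 27.6% on 29 or 30 reads. With calls pooled, Mcts2 was at 22.5% in A and 36.0% in B. RRBS reads of a fragment start at the same base and PCR copies cannot be recognised, so that calls are not independent molecules and intervals cover counting error only.

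Among the genes with a gDMR at or near their own promoter, Plagl1 was read at 2.58 and 6.08%, 27.7 and 28.8%, and 57.7 and 64.3% with increasing size. Peg3 was read at 4.89 and 2.50%, 29.2 and 43.9%, and 59.8 and 47.2%. Both had classes that did not overlap, although the 50–55 μm B value of Peg3 rested on 3 positions against 7 in A. Impact had 2.13 and 25.6%, 28.5 and 24.3%, and 42.2 and 49.3%. Its 40–45 μm replicates differed by more than either later step of its class means, and with pooled calls they were at 2.52 and 10.1%. Peg10 was at 15.6 and 6.65%, 20.3 and 25%, and 50.5 and 44.6%. The 50–55 μm B value of Peg10 came from 4 positions and 68 calls, the fewest calls of any window and library here.

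Between 40–45 and 60–65 μm, 9 of the 10 windows rose by the quasi-binomial test, against 6.82% of the 14396 windows tested that rose, 0.0695% that fell and 6.89% called in either direction. Both libraries of the larger class lay above both of the smaller in the same 9, which held for 24.9% of all windows. In pooled calls Airn rose by 60.0 percentage points (adjusted p = 4.41e-14), Nespas by 56.0 (6.62e-21), Plagl1 by 55.5 (7.86e-26), Mcts2 by 53.3 (1.40e-36), Peg3 by 49.4 (7.58e-06), Zrsr1 by 38.2 (4.55e-43) and Nap1l5 by 31.3 (9.99e-14). These 7 were called whichever 1 library was left out. Impact, which rose by 40.7 points (adjusted p = 0.000352), was not called without 40–45 μm A (0.172) or in windows of 1 kb to either side (0.375). Peg10, which rose by 33.9 points (0.0125), was not called without 40–45 μm A (0.208), 40–45 μm B (0.311), 60–65 μm A (0.134) or 60–65 μm B (0.392), nor over the 4 positions read in all 6 libraries (0.504). The Igf2r window differed by 0.490 points (adjusted p = 0.955).

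By 50–55 μm, 6 windows had risen, namely Mcts2, Plagl1, Zrsr1, Nespas, Airn and Nap1l5, against 3.41% of all windows (0.0625% fell and 3.47% were called in either direction), and both libraries lay above both 40–45 μm libraries in 8, as in 20.7% of all windows. The size of the step in pooled calls was 29.3 points for Mcts2 (adjusted p = 3.67e-16), 26.9 for Airn (7.66e-05), 25.4 for Nespas (7.83e-06), 22.6 for Plagl1 (7.49e-07), 11.8 for Zrsr1 (7.26e-06) and 7.75 for Nap1l5 (0.0393). Peg3, at 25.5 points, did not pass (0.0708) but did without 50–55 μm A (0.0305), with positions of at least 1 read (0.0261) and by limma (0.0322). Also not called were Impact (0.246), Peg10 (0.765) and Igf2r (0.890). Over positions read in all 6 libraries the step of Impact was 28.0 points and was called (0.0249). The step of Nap1l5 was not called with positions of at least 10 reads (0.0678) or within 1 kb (0.0537). Airn lost its call without 40–45 μm B (0.154). Nap1l5 lost its call without 40–45 μm A (0.264), 40–45 μm B (1.0), 50–55 μm A (0.135), 60–65 μm A (0.0923) or 60–65 μm B (0.0825), and with the larger of its own and the trended dispersion (0.0613).

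The same 6 windows rose again between 50–55 and 60–65 μm, against 2.49% of all windows (0.16% fell and 2.65% were called in either direction), and 8 of the 10 had both libraries above, as in 21.4% of all windows. In pooled calls Airn rose by 33.1 points (adjusted p = 0.0364), Plagl1 by 32.9 (4.88e-07), Nespas by 30.7 (0.000849), Zrsr1 by 26.4 (1.43e-11), Mcts2 by 24.0 (0.00116) and Nap1l5 by 23.6 (0.00125). The step of Mcts2 was 10.9 points in window means, with libraries that overlapped. Peg3, Peg10 and Impact gained 23.9, 23.9 and 22.9 points and were not called (0.449, 0.613 and 0.350). Plagl1 and Zrsr1 were called whichever 1 library was left out. Airn was lost without 40–45 μm A (0.0777), 40–45 μm B (0.0764), 60–65 μm A (0.697) or 60–65 μm B (0.799), over positions read in all 6 libraries (0.136) and within 1 kb (0.0741) and with the larger dispersion (0.0505), Mcts2 without 60–65 μm A (0.0717) or B (0.352) and with the larger dispersion (0.0657), Nap1l5 without 60–65 μm B (0.307), and Nespas without 50–55 μm A (0.148), 60–65 μm A (0.0542) or 60–65 μm B (0.442). The number called fell from 6 to 3 without 60–65 μm A and to 2 without 60–65 μm B.

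The number called depended on the test. In the order 50–55 against 40–45 μm, 60–65 against 50–55 μm and 60–65 against 40–45 μm, limma on log2 ratios of calls called 5, 0 and 9 of the 10 windows, against 1.46, 0.0 and 4.36% of all. The quasi-binomial test with the larger of a window's own and the trended dispersion, an alternative chosen after the data were seen, called 5, 4 and 9, against 1.94, 1.73 and 5.99%. edgeR on the calls called 1, 0 and 6, against 0.104, 0.0 and 2.71%. In the second step limma and edgeR called 0 of 14396 windows, with 859 and 435 at an unadjusted p under 0.05. Peg3, Impact and Peg10 were the windows that edgeR did not call over the whole range, beside Igf2r.

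The share of the rise complete at 50–55 μm ranged in window means from 18.8% for Zrsr1 and 29.1% for Nap1l5 through 31.6% for Peg10, 39.1% for Impact, 40.9% for Airn, 42.2% for Plagl1 and 45.1% for Nespas to 65.9% for Peg3 and 78.6% for Mcts2. These shares describe 2 libraries per class and were not tested between genes. From pooled calls, an alternative chosen after the data were seen, Zrsr1 was at 31.0%, Nap1l5 at 24.8%, Peg10 at 29.4%, Plagl1 at 40.7%, Impact at 43.8%, Airn at 44.9%, Nespas at 45.3%, Peg3 at 51.6% and Mcts2 at 55.0%. The order of the genes thus differed between the ways of counting. The share of Mcts2 was 41.1% without 50–55 μm B and 116% without 50–55 μm A, and that of Impact 3.76% without 40–45 μm A. Over the positions read in all 6 libraries, the share of Nespas was 46.7%, of Plagl1 45.0%, of Airn 40.7% and of Zrsr1 22.3%, whereas that of Peg3 went to 54.8%, of Impact to 69.3% and of Peg10 to 83.4%. Zrsr1 and Nap1l5 stood below Airn, Plagl1 and Nespas in these 3 ways of counting. Peg10 had 4 positions in all 6 libraries, which went from 5.49 through 20.1 to 23.0%, and Impact had 8, which went from 5.12 through 34.3 to 47.2%. Over such positions Airn ended at 57%, Plagl1 at 62.9% and Nespas at 58.8%.

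In the PBAT library of 60–65 μm, which read 31.0 to 74.9% of the CpGs of these windows against 3.01 to 35.9% by RRBS at this size, the 9 windows lay between 29.5 and 69.8%. Pooled over calls, Airn was at 70.3% (95% Wilson interval 67.3 to 73.2), Nespas at 62.3% (59.5 to 65.0), Peg3 at 64.8% (62.1 to 67.3), Impact at 59.3% (56.5 to 62.0) and Plagl1 at 56.3% (53.7 to 58.9). The nested genes were at 54.7% (Mcts2, 51.1 to 58.2), 53.5% (Nap1l5, 49.0 to 57.9) and 49.7% (Zrsr1, 46.3 to 53.0), while Peg10 was at 32.1% (29.0 to 35.3) and Igf2r at 7.02% (5.90 to 8.33). Nap1l5 was higher by PBAT than by RRBS in the window means, at 55.1% against 33.0 ± 6.70%, and Peg10 was lower, at 29.5% against 47.5 ± 4.21%. PBAT has no replicate.

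**Figure D2:**
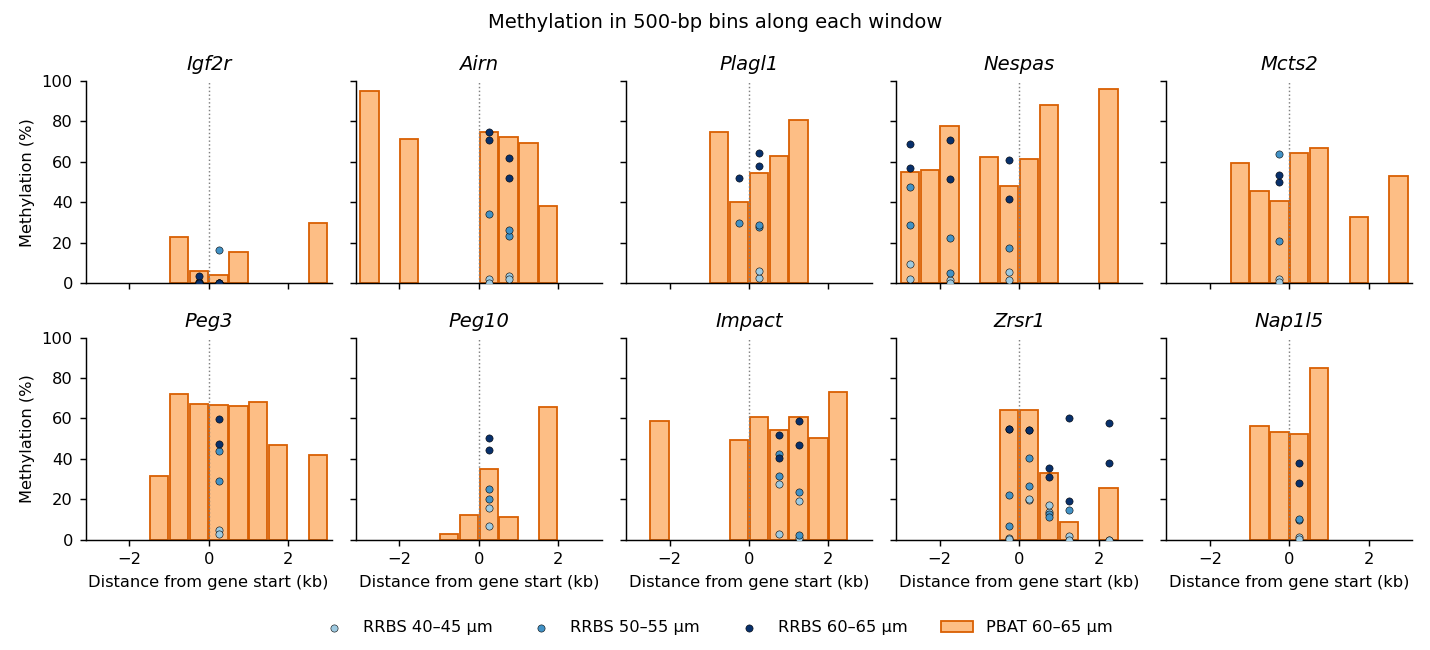
Methylation (%) in 500-bp bins against distance from the gene start (kb, along the direction of transcription), with PBAT of 60–65 μm oocytes as bars and single RRBS libraries as points, for bins with at least 3 positions of at least 5 reads. Peg3 and Airn show 66.1 to 74.8% in consecutive bins from the start to +1499 bp, Zrsr1 goes from 64.1 to 8.57% by PBAT within its own gene, and Igf2r is at 4.22 and 6.02% at its start.

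The methylated stretch sat differently relative to each start. At Airn most measured positions lay downstream of the start, with 74.8% in the first 500 bp, 72.3 and 69.5% in the next bins and 38.0% from +1500 to +1999 bp. Upstream, the bin from -3000 to -2501 bp was at 95.2% and that from -2000 to -1501 bp at 71.4%, on 3 positions each. At Peg3 it spanned the start, with 66.1 to 72.2% in each of the 5 bins from -1000 to +1499 bp, and fell to 31.7% from -1500 to -1001 bp. At Impact it reached far into the gene, at 60.9% in the first 500 bp, 60.7% from +1000 to +1499 bp, 50.1% in the next bin and 73.2% from +2000 to +2499 bp. Over all starts, 2.61% of 17316 with a measured first bin and 2.23% of 14442 with a measured preceding bin reached 50% there, against 12% from +1500 bp and 16% from +2000 bp.

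Zrsr1 was at 64.0% just before its start and 64.1% just after it, and fell to 33.1% from +500 and 8.57% from +1000 bp, the last on 4 positions and 31 calls. By RRBS the bins before and after the start were at 54.7 and 55.0%, and 54.4 and 54.2%, in 60–65 μm A and B, and the bin from +500 bp was at 35.3 and 30.8%. All 3 libraries were thus lower from +500 to +999 bp than at the start. Further on the bins held 2 to 6 positions each and did not follow one course. From +1000 bp A was under 20% and B at 60.4%, from +1500 bp both were at 30.2%, and from +2000 bp A was at 38.0%, B at 57.6% and PBAT at 25.8%. Peg10 was the most uneven, at 2.78% from -1000 to -501 bp, 12.3% just before the start, 34.9% just after it, 11.2% from +500 bp and 65.8% from +1500 to +1999 bp. All of its RRBS positions at 60–65 μm fell in the first 500 bp. Mcts2 stood at 40.6% in the bin before its start and 64.4% in the bin that covers most of the gene.

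Nespas was methylated on both sides of its start, with 77.5% from -2000 to -1501 bp and 95.8% from +2000 to +2499 bp, the latter on 8 positions and 47 calls (Wilson interval 85.8 to 98.8), and 48.3% just before the start. Plagl1 was at 75.0% from -1000 to -501 bp, 40.0% just before its start, 54.4 and 63.0% in the next bins and 80.8% from +1000 to +1499 bp, with 4 positions in the first and the last of these. Nap1l5, whose 4 measured bins all reached 50%, was at 52.2% over its first 500 bp and 85.0% over the next, on 4 positions. Igf2r was under 10% in the 2 bins at its start, and its highest bin, 30.0% from +2500 to +2999 bp, was reached by 11.9% of all bins.

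At single cytosines of 60–65 μm oocytes, 211 positions were read in both RRBS libraries, all of which lie in CpGs of the reference. The 24 in the Igf2r window were at 9.38% or less in the mean of A and B, with a single value of 18.8% in A, at -36 bp, where B was at 0. The 187 in the other 9 windows had a median of 52.2%, 100 were at or above 50% and 16 under 20%. Positions in a window share libraries and often reads, so that the following correlations are descriptions. Across the 187 positions, A and B had a Pearson correlation of 0.615 and a Spearman correlation of 0.613. Within windows, Pearson's r was 0.917 for Peg10 (10 positions), 0.867 for Airn (10), 0.831 for Peg3 (7), 0.762 for Mcts2 (18) and 0.616 for Zrsr1 (50), and between 0.363 and 0.483 for Nap1l5, Plagl1, Nespas and Impact.

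**Figure D3:**
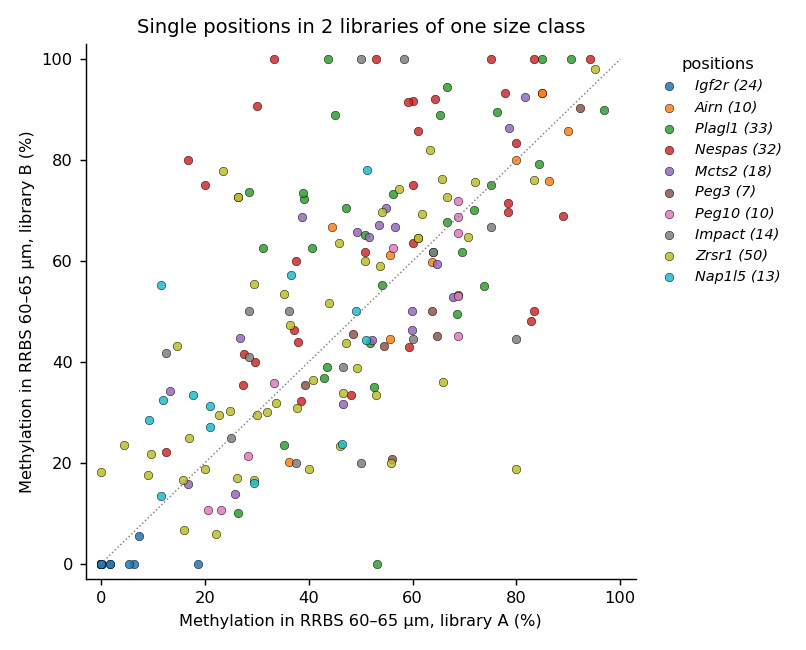
Methylation (%) of 211 single cytosines in the 2 RRBS libraries of 60–65 μm oocytes, replicate A on the x axis and B on the y axis, coloured by gene, with the line of equal values. The 24 positions of Igf2r sit at the lower left, and those of the other 9 genes spread from 9.09 to 97.1% in the mean of the libraries.

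Neighbouring CpGs differed in a repeatable way in several windows. Of 154 pairs of positions at most 10 bp apart, 19 differed by at least 25 points in both libraries in the same order, and 0 did so in opposite orders. The pairs include those of the nearly unmethylated Igf2r window, and several share a CpG. Below that threshold some pairs did reverse, as from +277 to +282 bp of Plagl1, by 21.9 points in A and -62.5 in B. In the 27 bp of Mcts2 printed above, the CpG at -257 bp was at 16.7% in A and 15.7% in B, whereas the CpG 2 bp further on, at -255 bp, was at 78.6 and 86.3%. At 50–55 μm these 2 CpGs were at 13.8 and 27.6% in A and, in the opposite order, at 100 and 55.6% in B. In the second Airn stretch the CpG at +925 bp was at 36.2 and 20.2% and that at +934 bp at 86.2 and 75.8%. PBAT gave 27.8% on 18 reads and 58.8% on 17 for the same CpGs of Airn, the same order with a smaller gap. At Nap1l5 the CpG at +348 bp was at 51.2 and 78.1% and that at +357 bp at 17.6 and 33.3%.

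Where RRBS and PBAT read the same cytosines of the 9 windows, at 112 positions, the mean was 51.9% by RRBS and 51.0% by PBAT, with r of 0.463 across positions. Within windows of at least 6 such positions, r was 0.00449 for Peg10 (7 positions) and between 0.48 for Nap1l5 (7) and 0.686 for Mcts2 (9) in the others. Nespas was at 56.1% by RRBS and 70.8% by PBAT over 17 such positions, and Nap1l5 at 30.7 and 47.2% over 7. Peg10, at 57.2% against 43.8% over 7 positions, and Plagl1, at 61.4% against 50.5% over 32, were lower by PBAT. The Igf2r promoter, at 0.656 and 3.84% over 20 positions, was low in both.

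A sequence feature not used to choose the genes was frequent in these windows. The hexamer TGCCGC, recognised by ZFP57 when its CpG is methylated, was counted on both strands. It occurred 8 times in the 6 kb of Airn and of Peg3, 7 times at Nespas, 6 at Plagl1 and Nap1l5, 5 at Impact, 4 at Zrsr1, and 3 at Mcts2, Peg10 and Igf2r. The median was 5.5 against 1.0 over the 14396 windows, of which 0.452% had 8 or more, 2.24% had 6 or more and 21.8% had 3 or more. Their CpG number (median 162 against 140), GC content (47.8% against 48.7%) and ratio of observed to expected CpGs (0.470 against 0.401) lay nearer to those of all windows. The members were taken as known imprinted genes, so that these counts describe the set and were not tested.

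**Figure D4:**
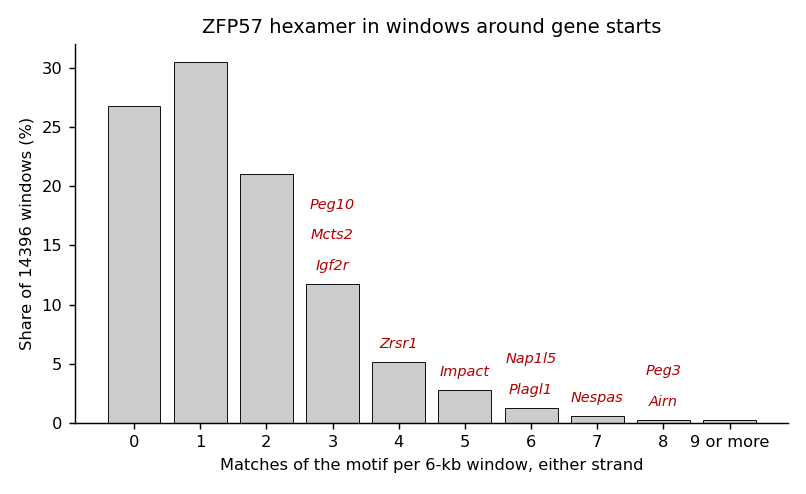
Share of 14396 windows around gene starts (%) by the number of ZFP57 hexamers in 6 kb, either strand, with the genes named above the bar of their own count. All of the genes have 3 or more hexamers, as do 21.8% of the windows.

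Some hexamers lay in the stretches printed above. In Plagl1 the CpGs of the hexamers starting at +373 and +391 bp were at 63.9 and 90.5% in 60–65 μm A and at 61.8 and 100% in B. In Mcts2 those starting at -278 and -262 bp were at 54.8 and 56.7% in A and at 70.6 and 66.7% in B. The Nap1l5 hexamer starting at +257 bp was at 11.6% on 43 reads in A and 55.2% on 105 reads in B, so that its replicates did not give a single level. By PBAT the Peg3 hexamers starting at +249, +264 and +354 bp were at 58.6, 91.7 and 82.4% on 29, 24 and 17 reads. The Plagl1 hexamer at +51 bp was at 23.5% on 17 reads, the Peg10 hexamer at +618 bp at 14.3% on 7 and the Igf2r hexamer at +183 bp at 0% on 19. Within these windows, 36.8% of the 38 bins at or above 50% in PBAT and 36.7% of the 60 bins measured held a hexamer. Of the 172752 bins of all windows, measured or not, 10.5% held one. A measured bin must hold CpGs, as the hexamer does, so that this last share is not a like comparison.

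Transcripts of these genes were mostly scarce in growing oocytes, and 4 of the 10 passed the filter of 0.5 RPKM in 2 libraries. Mcts2 and Impact fell with oocyte growth and Peg3 fell less, while Igf2r remained the most abundant. The mean over the 8 libraries was 8.79 RPKM for Igf2r, 3.15 for Impact, 1.02 for Mcts2, 0.845 for Peg3, 0.244 for Peg10, 0.160 for Plagl1, 0.0931 for Zrsr1, 0.0603 for Nespas, 0.0333 for Airn and 0.00751 for Nap1l5, and 8.31% of the genes in the table were above Igf2r. RPKM is a share of the RNA of a library, and in pooled oocytes fewer cells that express a gene and less RNA per cell cannot be told apart.

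**Figure D5:**
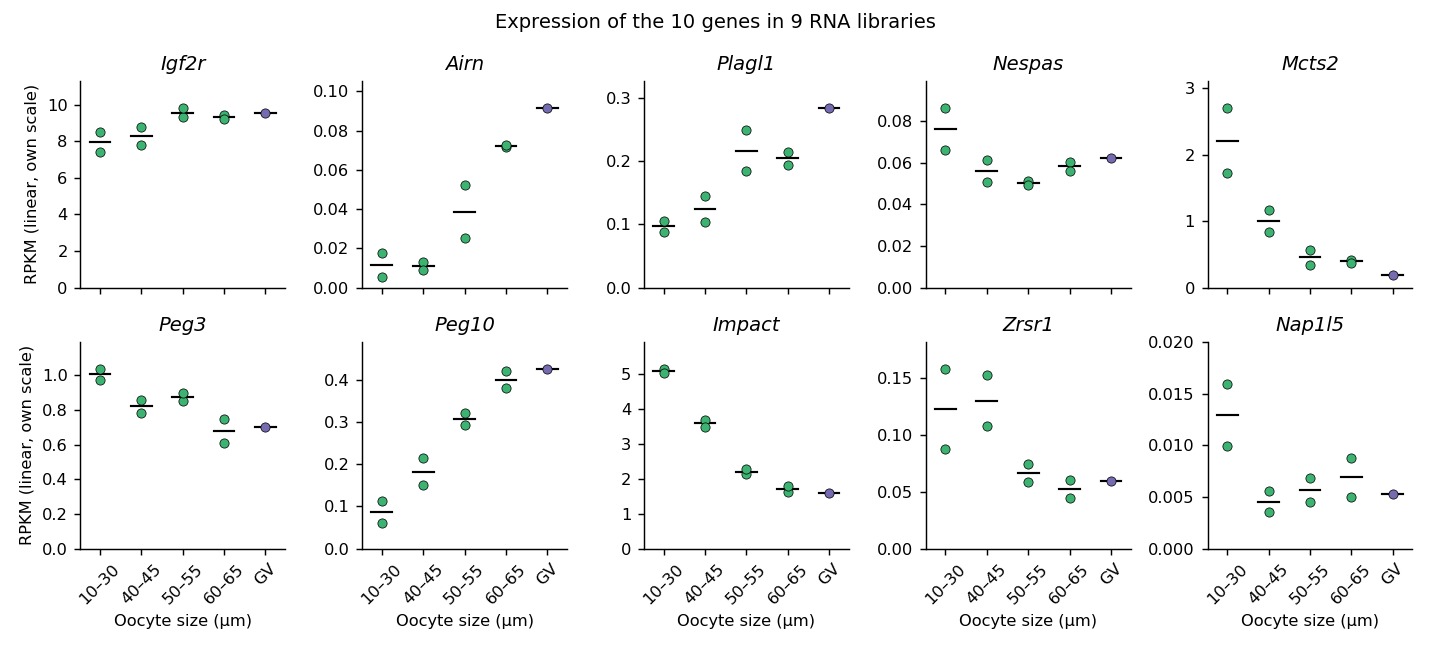
Expression (RPKM, linear, each gene on its own axis from 0) by oocyte diameter, with 1 point per library, a bar at the mean of a class, and the single GV library in a different colour. Mcts2 and Impact decline from the smallest to the largest class, Airn and Peg10 increase, and the axis of Nap1l5 ends at 0.02 RPKM.

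Mcts2, the retrotransposed copy of a gene for a translation factor, had 2.70 and 1.72 RPKM (A and B) in the smallest oocytes, then 0.831 and 1.17, 0.343 and 0.571, and 0.420 and 0.376 with increasing size, and 0.197 in GV oocytes. Its first 3 classes did not overlap. On the log2(RPKM + 0.1) scale of limma, 60–65 μm was below 10–30 μm by a log2 difference of -2.16 (SE 0.267, adjusted p = 0.000215), and it was called in each of the alternatives that tested it. With a filter of 2 RPKM in 2 libraries it was not tested. Reads of its parent gene and of H13 transcripts on the same strand may be counted with it. Impact (chr18:12972252-12992948, plus strand) was at 5.15 and 5.05 RPKM, then 3.68 and 3.49, 2.14 and 2.28, and 1.63 and 1.80, with 1.59 in GV oocytes, and its 4 classes did not overlap. The log2 difference over growth was -1.50 (SE 0.103, adjusted p = 1.47e-05).

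Peg3 had 0.974 and 1.04 RPKM, 0.784 and 0.859, 0.854 and 0.898, and 0.607 and 0.746 with increasing size, and 0.703 in GV oocytes. Its log2 difference between 60–65 and 10–30 μm was -0.50 (SE 0.122, limma adjusted p = 0.00741), which was not called without 60–65 μm A (-0.36, adjusted p = 0.0642). Igf2r had 7.43 and 8.52 RPKM, 7.78 and 8.79, 9.30 and 9.81, and 9.44 and 9.23 with increasing size, and 9.53 in GV oocytes. It differed by 0.25 (SE 0.0953) and missed the threshold at an adjusted p of 0.0506, and without 10–30 μm B it was called (0.31, adjusted p = 0.0313). It was also called by limma with a pseudocount of 1 (0.0497), without a filter (0.0449) and with the 2 RPKM filter (0.0494). In this comparison the calls of all 10518 genes were 31.1% lower, 32.1% higher and 63.2% in either direction, beside 3 lower among the 4 genes tested. That count is no share of the 10 genes, since the filter left out 6 of them and Mcts2 passed it through the smaller oocytes, being under 0.5 RPKM in both 60–65 μm libraries. Without a filter, limma called 4 of the 10 lower (Mcts2, Impact, Peg3 and Zrsr1) and 4 higher (Peg10, Plagl1, Airn and Igf2r), against 22.9 and 23.6% of 20052 genes.

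By single steps, Mcts2 and Impact fell between 10–30 and 40–45 μm, against 8.29% of all genes that fell, 15.6% that rose and 23.9% called in either direction. The log2 difference was -0.95 (SE 0.267, limma adjusted p = 0.0361) for Mcts2 and -0.38 (SE 0.103, 0.0317) for Impact. Mcts2 passed the filter through the smaller oocytes. Without a filter limma called Impact (adjusted p = 0.0436) and not Mcts2 (0.0812). Without scaling of the libraries the split over all genes turned from 1637 higher and 872 lower to 1088 higher and 1521 lower, and both genes still fell. Both calls were lost when 10–30 μm A, 40–45 μm A, 40–45 μm B, 60–65 μm A or 60–65 μm B was left out, with adjusted p from 0.0529 to 0.188 for Mcts2 and from 0.0508 to 0.136 for Impact, and Impact also without 50–55 μm A (0.0583) or B (0.0587). Between 40–45 and 50–55 μm, where 4.13% of genes fell, 5.34% rose and 9.47% were called, Impact fell by 0.72 on the log2 scale (SE 0.103, adjusted p = 0.0157) and Mcts2 by 1.04 (SE 0.267, 0.0489). Without a filter limma again called Impact (adjusted p = 0.0353) and not Mcts2 (0.107). Impact was not called without 40–45 μm B (0.0872) or 50–55 μm A (0.146), and Mcts2 lost its call when any 1 of the 6 libraries from 40–45 to 60–65 μm was left out (0.0593 to 0.273).

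Between 50–55 and 60–65 μm no gene was called by limma, at 0 of 10518 (0.0%), although 1478 had an unadjusted p under 0.05. edgeR on the whole reads behind the RPKM called 0 of 15001, with 2068 under 0.05. The difference was -0.40 for Impact (adjusted p = 0.175) and -0.38 for Peg3 (0.222). Mcts2 differed by -0.18 (0.820), with libraries that overlapped, and Igf2r by -0.09 (0.735).

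Of the 6 genes under the filter, Airn had 0.00562 and 0.0176 RPKM in the smallest oocytes, on 2 and 10 reads, then 0.0130 and 0.00877, 0.0522 and 0.0253, and 0.0717 and 0.0725, the last on 27 and 47 reads, with 0.0915 in GV oocytes. Peg10 was at 0.0604 and 0.113, 0.151 and 0.213, 0.293 and 0.320, and 0.419 and 0.381 RPKM, the last on 294 and 459 reads, with 0.425 in GV oocytes. Its 4 classes did not overlap. Plagl1 was at 0.0884 and 0.105, 0.104 and 0.145, 0.184 and 0.248, and 0.194 and 0.214 RPKM, with 0.284 in GV oocytes. Zrsr1 went the other way, from 0.0874 and 0.158 through 0.108 and 0.153 and 0.0587 and 0.0749 to 0.0445 and 0.0603 RPKM, with 0.0595 in GV oocytes. Nespas lay between 0.0494 and 0.0865 RPKM in all 9 libraries, and Nap1l5 was read by 1 to 3 reads in each.

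Read counts could be recovered from the RPKM, and edgeR's quasi-likelihood test on them, chosen after the data were seen, reached 9 of the 10 genes and called 7 between 60–65 and 10–30 μm, against 61.2% of all genes tested. Beside the falls of Mcts2, Impact and Peg3, it called Airn higher by 2.50 on the log2 scale (adjusted p = 0.00195), Peg10 by 2.18 (7.30e-05) and Plagl1 by 1.09 (0.00195), and Zrsr1 lower, at -1.21 (0.00983). Igf2r (0.24, edgeR adjusted p = 0.0535) and Nespas (-0.35, 0.319) were not called. In the first step it called 3 of the 9, Mcts2, Impact and Peg10, against 22.1% of genes, and in the second step Impact alone, against 8.35%. The libraries were made strand-specific, but it is not given in the sources used here whether the table counts by strand. Reads of Igf2r introns, which overlap 28354 bp of Airn, therefore cannot be told apart from Airn, and the same holds for Zrsr1 and Commd1, for Nap1l5, which lies wholly inside Herc3 on the opposite strand, and for Nespas, which overlaps Gnas over 11117 bp.

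Of the host, neighbouring and partner genes, 3 of the 6 tested rose between 10–30 and 60–65 μm and 0 fell. Over all genes tested, 32.1% rose and 31.1% fell. Usp29, which starts 230739 bp from the start of Peg3 in the table and encodes a ubiquitin protease, rose most, from 0.316 and 0.277 RPKM through 1.48 and 1.04 and then 2.90 and 2.52 to 3.87 and 3.78, with 4.96 in GV oocytes. Its classes did not overlap, and the log2 difference over growth was 3.31 (SE 0.172, limma adjusted p = 7.87e-06). H13, a signal peptide peptidase that hosts Mcts2, went from 2.72 and 3.09 to 5.46 and 5.13 RPKM (0.86, SE 0.0984, adjusted p = 0.000142), the opposite direction to Mcts2. Commd1, the host of Zrsr1, went from 5.84 and 6.15 to 7.48 and 7.15 RPKM (0.30, SE 0.0911, 0.0194).

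Herc3, the host of Nap1l5, was at 4.90 and 6.02 RPKM at 10–30 μm and 5.59 and 5.72 at 60–65 μm (0.07, adjusted p = 0.545). Gnas, which encodes a G protein subunit and overlaps Nespas, was at 6.83 and 10.6 and later at 7.74 and 7.71 RPKM (-0.12, 0.637). Sgce, the neighbour of Peg10, was under the filter, at 0.0326 and 0.0183 RPKM and then 0.0925 and 0.0914, and its methylation window held the same calls as that of Peg10. Igf2r, the gene that Airn overlaps, is the other gene of the list. The rise of Commd1 and H13 is to be read against the 32.1% of genes that rose.

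The purity of the oocytes bears on these values. The summed RPKM of 12 oocyte markers was 3404 to 3580 in the smallest class, 3404 to 3955 and 3299 to 3381 in the following classes and 2858 to 3008 in the largest, and 5 of the 12 fell and 2 rose between the smallest and the largest class. That of 10 granulosa markers was 2.09 to 2.52 in the smallest and 7.22 to 7.84 in the largest class, with all 10 above 0 in every library, and that of 7 markers of theca and stroma was 2.04 to 2.78, 0.564 to 1.4, 0.408 to 0.676 and 0.811 to 0.863 with increasing size, with Cyp17a1 at 0 in both 10–30 μm libraries. The tested granulosa markers Cyp19a1, Nr5a2 and Inha rose, and the tested stroma markers Col1a1 and Col1a2 fell. Beside these and the oocyte markers, 32.1% of all genes tested rose between the smallest and the largest class and 31.1% fell. The 3 blood markers in the table summed to 0.203 to 0.388. The granulosa sum rose with Airn, Peg10, Plagl1 and Usp29, and the oocyte sum was lowest in the largest class, as Impact and Peg3 were. The stroma sum was lower in the largest than in the smallest class, as Mcts2, Impact and Peg3 were, but higher at 60–65 than at 50–55 μm. Their part in these results was not tested.

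Windows of other imprinted genes were tested in the same way. Of 14 further genes named for maternal gDMRs, 9 had a tested window, and 2 rose between 40–45 and 60–65 μm, against 6.82% of all windows, namely Slc38a4, an amino acid transporter gene, from 4.14 and 4.15% to 42.8 and 46.7%, and Nnat, from 2.80 and 10.7% to 18.5 and 24.8%. Their pooled calls rose by 38.8 (adjusted p = 0.000393) and 12.4 points (9.15e-08). The Slc38a4 levels rested on 4 positions in A and 3 in B. A gDMR can lie away from the gene start, as at Igf2r, but its distance was not measured or tested for these further genes. Of 5 genes at paternal gDMRs, 4 were tested and none was called by the quasi-binomial test in any comparison, with 0 at an unadjusted p under 0.05. Among them, H19 was at 2.40 and 0.889% at 60–65 μm. Igf2 went from 12.3 and 16.9% to 29.8 and 20.9% in window means, and by 0.642 points in pooled calls (adjusted p = 0.995).

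Among 13 tested genes for writers and protectors of methylation, 5 rose and 3 fell between 10–30 and 60–65 μm, against 32.1 and 31.1% of all genes. Dnmt3l rose by 3.37 on the log2 scale (SE 0.188, limma adjusted p = 8.43e-06), Setd2 by 0.68 (0.00371), Trim28 by 0.63 (0.00150), Zfp57 by 0.58 (0.00237) and Dnmt3a by 0.53 (0.00963). The H3K4 demethylase genes Kdm5b and Kdm1b fell, at -2.33 (1.10e-05) and -0.60 (0.00138), as did Dppa3, at -1.18 (0.000279). Between 50–55 and 60–65 μm none of the 13 was called, with 2 at an unadjusted p under 0.05. The windows at the starts of 11 of these genes were tested for methylation, and none was called by the quasi-binomial test in any comparison, with at most 2 at an unadjusted p under 0.05.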

How the data were processed

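The authors deposited, for each of 9 RNA-seq libraries, RPKM values per gene on GRCm38. Per the deposited files, each RRBS or PBAT library gave counts of methylated and unmethylated calls at each cytosine together with the percentage methylated. According to the submitters' processing notes, reads were trimmed with Trim Galore 0.2.8 (RNA) or 0.3.5 and aligned with TopHat2 2.0.9 (RNA) or Bismark 0.14.0 (RRBS) or 0.10.0 (PBAT). PBAT duplicates were removed, and no removal is stated for RRBS. The libraries held 29942043 to 57215134 RRBS calls and 98148116 PBAT calls. Whole reads were recovered from the RPKM for 17965 of 17965 genes (100%, tolerance 0.05 reads), giving 24.3 M to 55.5 M gene reads a library.

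Expression was tested on log2(RPKM + 0.1) with limma 3.58.1 in R 4.3.3, after scaling the libraries, for genes at 0.5 RPKM or more in 2 of the 8 libraries of growing oocytes, without the GV library. The fit was planned for RPKM, and edgeR 4.0.16 on recovered reads was added after the data were seen. Methylation windows needed 3 positions of at least 5 reads in each of the 6 RRBS libraries, and their calls were compared by a quasi-binomial logistic model. Its dispersion was moderated towards a trend on the methylation level, with the prior degrees of freedom estimated as infinite, so that the trend alone was used, and p-values were adjusted over all windows (Benjamini-Hochberg), as they were over all genes. On simulated calls a larger share of this test's calls were unchanged windows than the 5% aimed at, so a stricter dispersion was added, which also exceeded it. Applied to methylation, limma and edgeR recovered no change built into simulated RRBS libraries of 50–55 and 60–65 μm, so that their 0 calls there do not show an absence of change. An exact permutation of 2 against 2 libraries cannot go below p = 0.33. Sequences and exons were read from RefSeq GRCm38.p6, and tables and plots were made with Python 3.11.15, pandas 2.3.3, numpy 2.4.6, scipy 1.17.1 and matplotlib 3.10.9. The replicate letters were not used to pair the samples, since nothing states that they mark a shared source and not every correlation between the deviations of libraries with the same letter was over 0.1. The correlations lay between -0.225 and 0.669 for RNA and between -0.00671 and 0.0235 for RRBS. The genes named are the members, their hosts or partners, and genes of lists for other maternal and paternal gDMRs, methylation writers and cell type markers, all chosen with earlier results of these data known.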

Additional observations from a re-analysis of the deposited data

How the results depend on the processing

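Of the RNA differences of single genes, 198 recomputed values kept their direction and side of the threshold, 27 lost the call, 5 gained it and 2 reversed. Of the RRBS differences 377 kept both, 52 lost the call, 9 gained it and 6 reversed, and of the methylation levels 48 moved by more than the replicate SD. The cause was not tested. Between 40–45 and 10–30 μm, 1 gene in place of 2 was called with a filter of 2 RPKM or with quantile normalisation. Without a filter limma called Impact (adjusted p = 0.0436) and Peg10 (0.0469) and lost Mcts2 (0.0812). Between 50–55 and 40–45 μm, 1 in place of 2 was called with a pseudocount of 1, without a filter, with 2 RPKM, without scaling or with edgeR on reads. Between 60–65 and 10–30 μm, 8 were called without a filter and 7 with edgeR, in place of 3, where more genes were tested. For RRBS, edgeR called 1 window in the first step, and edgeR and limma called 0 in the second.

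Leaving out 1 library gave 0 to 2, 0 to 2, 0 to 0 and 2 to 4 genes called for RNA (40–45 against 10–30, 50–55 against 40–45, 60–65 against 50–55 and 60–65 against 10–30 μm), and 4 to 6, 2 to 6 and 7 to 9 windows for RRBS (50–55 against 40–45, 60–65 against 50–55 and 60–65 against 40–45 μm). The reversed values were all of differences that had not been called. Leaving out 1 library, the log2 difference of Mcts2 between 60–65 and 50–55 μm ranged from -0.47 to 0.13, and that of Peg3 between 50–55 and 40–45 μm from -0.0066 to 0.077. The Igf2r window differed by -0.682 to 0.0337 points in the first RRBS step, by -0.244 to 1.53 in the second and by -0.606 to 1.17 over both, and by 0.726 (first) and -0.257 (second) with positions of at least 1 read and by -0.0083 (both) over positions read in all 6 libraries.

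Over all windows, 500, 382 and 992 were called, against 176, 144 and 299 of 13053 within 1 kb, 15, 0 and 390 with edgeR, 210, 0 and 627 with limma, and 280, 249 and 862 with the larger dispersion. Among 826 windows with a mean of at least 5%, 423, 375 and 581 were called, a set that the gain itself helps to select. Over all genes, 996 were called between 50–55 and 40–45 μm, against 557 of 20052 without a filter and 553 of 7235 with 2 RPKM. With the replicate letter as a block, 2, 2, 0 and 4 genes and 6, 6 and 9 windows were called, Igf2r being the added gene (adjusted p = 0.0296), and 1922 and 227 genes were called in the last 2 RNA steps, in place of 996 and 0.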
